A study of Homo sapiens with 15 samples.

Results

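The comparison described here set DW71177 against OTX015 at the same dose and time in MV4-11 cells, and asked which genes the 2 compounds left at different levels. Its members were the 3 arrays titled DW71177 and the 3 arrays titled OTX015, which are 6 of the 15 arrays of the series. Each gene was represented by its feature of highest mean over the 15 arrays, and the measure was the difference of group means on the log2 scale, DW71177 minus OTX015. A positive value means more signal after DW71177, and a negative value more signal after OTX015.

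MV4-11 is an established human acute myeloid leukemia (AML) line that carries a KMT2A-AFF1 fusion and an internal tandem duplication of FLT3. Cells were exposed for 24 h to DW71177 at 300 nM, to OTX015 at 300 nM or to DMSO, the solvent, which served here to give the direction of each gene's change. Further arrays, of DW71374 at 300 nM and RVX208 at 5 uM, entered the fit so that all 5 groups of 3 shared 1 estimate of the spread. Total RNA was measured on a whole-transcript Affymetrix array. One line stands for the disease here, and the labels describe wells treated in triplicate without saying that they were separate cultures, so each p-value speaks of variation from array to array that could be wholly technical. In such bulk RNA, fewer cells in a state and less RNA per cell cannot be told apart.

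BET proteins, such as BRD2 and BRD3, bind acetylated lysines on histones through paired bromodomains and bring the elongation kinase P-TEFb to promoters and enhancers. In AML cells, drugs that occupy these bromodomains lower transcription of MYC, BCL2 and other genes that lie under large enhancers, and raise HEXIM1, an inhibitor of P-TEFb that is widely used as a marker of target engagement. OTX015, also called birabresib, is a BET inhibitor that has been given to patients with leukemia. DW71177 is known here by its code name, and the series presents it as another BET inhibitor.

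Few genes were called between the 2 compounds in the fit of 15 arrays, and the differences that passed the test were small. Of 14812 genes, 186 (1.26% of those tested) differed at an adjusted p under 0.05 by limma with Benjamini-Hochberg adjustment. Of these, 159 (1.07%) were higher with DW71177 and 27 (0.182%) were lower. The median fold among the called genes was 1.29 for those higher (range 1.17 to 1.71) and 1.33 for those lower (range 1.20 to 2.06). A difference of at least 1.5-fold was reached by 12 of the genes called higher and 5 of those called lower, and ARRDC4 was the sole called gene past 2-fold. As 1 pair of compounds was compared, no adjustment over pairs was needed.

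The number of calls varied widely with the setting. An intensity trend in eBayes raised it to 495, and leaving out genes of mean signal under 5 to 593. With the 6 arrays of the 2 compounds fitted alone, limma called 1 gene, ARRDC4, although 1413 genes had an unadjusted p under 0.05 (961 higher, 452 lower). With the 9 arrays that include DMSO it called 7, and in the fit of 15 arrays 2032 genes had an unadjusted p under 0.05, against 741 that chance alone would give. Leaving out 1 of the 6 arrays gave 71 to 139 calls: 106 without DW71177 replicate 1, 71 without replicate 2 and 74 without replicate 3, and 80, 139 and 104 without OTX015 replicates 1, 2 and 3. DW71177 replicate 2 and OTX015 replicate 3 had the lowest array weights of the 6, at 0.554 and 0.691, and 31 genes were called without both.

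For most genes with a mean log2 signal of at least 5, the interval of the difference was narrow enough to bound it. Among these 6736 genes the 95% confidence interval lay within 1.5-fold in either direction for 97.5%. Over all genes it lay within 1.5-fold for 13838 (93.4%) and within 2-fold for 14764 (99.7%). For the genes of lower signal these intervals set no such limit, since no background level was given. In each of the 186 called genes the 3 arrays of one compound lay wholly above or below the 3 of the other, as they did in 2302 (15.5%) of all genes.

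**Figure D1:**
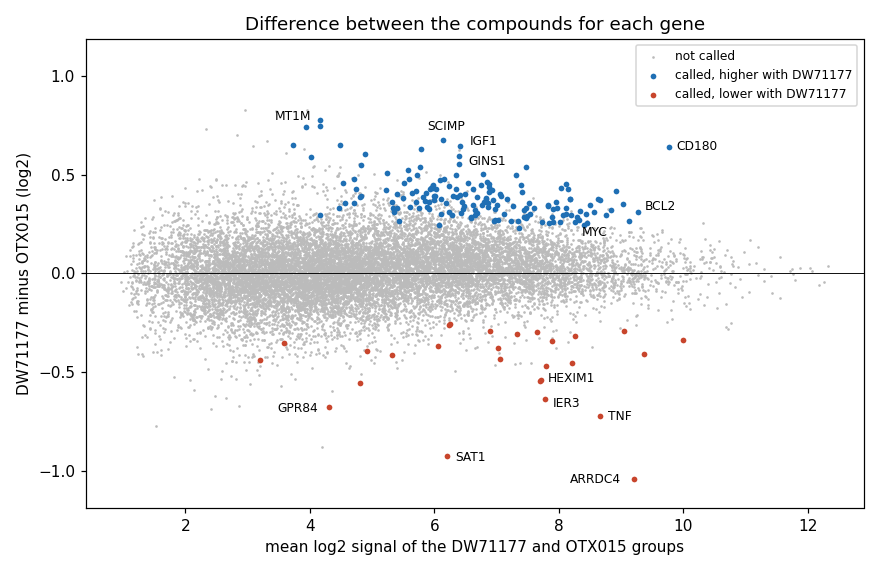
Difference between the compounds (DW71177 minus OTX015, log2) against the mean log2 signal of both groups for each of 14812 genes. Blue points are the 159 genes called higher with DW71177 and red points the 27 called lower, among them ARRDC4 at -1.04 and SAT1 at -0.93.

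Set against DMSO, the called genes mostly moved the same way with both compounds and farther with OTX015. The mean of OTX015 lay farthest from DMSO in 152 of the 186 genes (81.7%): in 129 of the 159 that were higher with DW71177, which are genes that OTX015 lowered more, and in 23 of the 27 that were lower with DW71177, which are genes that OTX015 raised more. Of the 152, limma also called 120 against DMSO in the same direction with both compounds and 32 with OTX015 alone. The DMSO mean lay between the compounds in 31 genes, and DW71177 lay farthest from DMSO in 3. None of the 186 was called in opposite directions against DMSO by the 2 compounds. Over all genes, limma called 2937 (19.8%) between DW71177 and DMSO, of which 9.95% of genes tested were higher and 9.88% lower, and 3800 (25.7%) between OTX015 and DMSO, 11.2% higher and 14.5% lower. Both of these comparisons use the same DMSO arrays, so the counts are set side by side as a description.

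Among the 129 genes that OTX015 lowered farther, the DW71177 difference from DMSO had a median of 54.4% of the OTX015 difference, with quartiles at 39.6% and 62.7%. Among the 23 that OTX015 raised farther, the median was 60.9%. These shares describe genes chosen for differing between the compounds. For the genes on which a BET inhibitor is usually judged, the DW71177 difference was 67.1% of that of OTX015 for HEXIM1, 73.9% for BCL2 and 81.7% for MYC. These genes were also called between the compounds. A second, dimmer HEXIM1 feature lay nearer between them, at 0.72 above DMSO with DW71177 and 0.85 with OTX015.

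**Figure D2:**
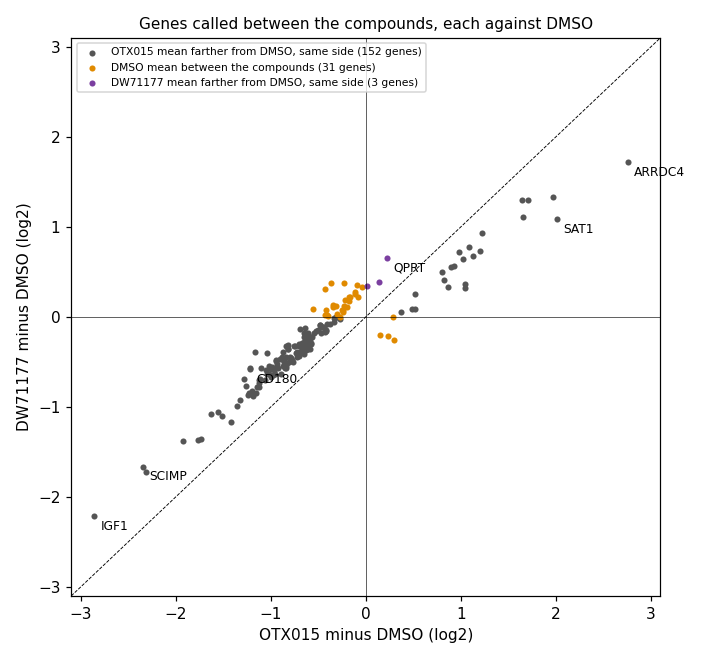
The 186 called genes by their difference from DMSO with OTX015 (horizontal, log2) and with DW71177 (vertical, log2); the dashed line marks equal differences. The 152 grey genes lie nearer to the horizontal axis than the dashed line, on the same side of DMSO for both compounds, from IGF1 at -2.86 and -2.21 to ARRDC4 at 2.76 and 1.72.

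ARRDC4 showed the largest called difference and was the call least dependent on the settings. It encodes an alpha-arrestin, an adaptor that brings ubiquitin ligases to membrane proteins and, like its relative TXNIP, is known as a glucose-responsive gene. Its log2 signals were 8.59, 8.79 and 8.66 on the DW71177 arrays, 9.71, 9.70 and 9.75 on the OTX015 arrays and 6.87, 7.07 and 6.97 on the DMSO arrays. The groups were wholly apart, with DW71177 between DMSO and OTX015. The difference was -1.04 (95% interval -1.19 to -0.89, limma adjusted p = 1.1e-05), which is 2.06-fold less signal with DW71177, and ARRDC4 was called in each of 18 alternative settings.

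None of the other alpha-arrestins was called between the compounds in the reported fit. Of the 6 measured, ARRDC4 included, 4 were called higher than DMSO with each compound. Over all genes, 11.2% were called higher with OTX015 and 9.95% with DW71177. Between the compounds 1 was called lower with DW71177, against 0.182% of all genes, and 5 were not called. An intensity trend called 2 of the 6 lower, against 70 of 14812 genes in that setting. Leaving out genes of mean signal under 5 called 3 of 5 lower, against 83 of 6736. The median of the 6 was -0.21, against 0.01 for all genes. TXNIP, which restrains glucose uptake and thioredoxin, read 10.53, 10.72 and 10.47 with DW71177, 10.91, 10.80 and 10.86 with OTX015 and 9.20 to 9.27 with DMSO. Its arrays did not overlap, and its difference of -0.28 (interval -0.44 to -0.13, limma adjusted p = 0.077) missed the threshold. ARRDC3 had a difference of -0.39 (interval -0.64 to -0.13, limma adjusted p = 0.14).

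SAT1, which encodes the rate-limiting enzyme of polyamine breakdown, showed the second largest called difference. It read 5.66, 5.90 and 5.67 with DW71177, 6.67, 6.66 and 6.67 with OTX015 and 4.75, 4.31 and 4.91 with DMSO. All 3 groups were apart from each other. The difference was -0.93 (interval -1.21 to -0.64, 1.90-fold, limma adjusted p = 0.0076), and it was called in 16 of 18 alternative settings, not in the fits of 6 and 9 arrays. The other 13 measured genes of polyamine metabolism were not called in the reported fit, among them SRM, the spermidine synthase, at 0.18 (interval 0.05 to 0.30).

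HEXIM1, the P-TEFb inhibitor, rose less with DW71177. Its signals were 7.51, 7.38 and 7.39 with DW71177, 7.96, 7.97 and 7.98 with OTX015 and 6.28, 6.28 and 6.39 with DMSO, with no overlap between groups. The difference was -0.54 (interval -0.69 to -0.40, 1.46-fold, limma adjusted p = 0.0035). The array holds another, dimmer HEXIM1 feature, on which the difference was -0.13, and the mean of both features was -0.34.

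Of the BET and P-TEFb genes, 8 were measured and HEXIM1 was the single one called in the reported fit, against 1.26% of all genes. An intensity trend called 2 of the 8 lower, against 70 of 14812 genes in that setting. Leaving out genes of mean signal under 5 called 2 of 7 lower, against 83 of 6736. BRD2 read 6.96, 7.10 and 6.97 with DW71177 and 7.27, 7.25 and 7.26 with OTX015, above DMSO at 6.67 to 6.81. Its difference of -0.25 (interval -0.37 to -0.12) had a limma adjusted p of 0.058. BRD3 differed by 0.01 (interval -0.13 to 0.15), and CCNT1, the cyclin subunit of P-TEFb, by -0.10 (interval -0.25 to 0.04).

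**Figure D3:**
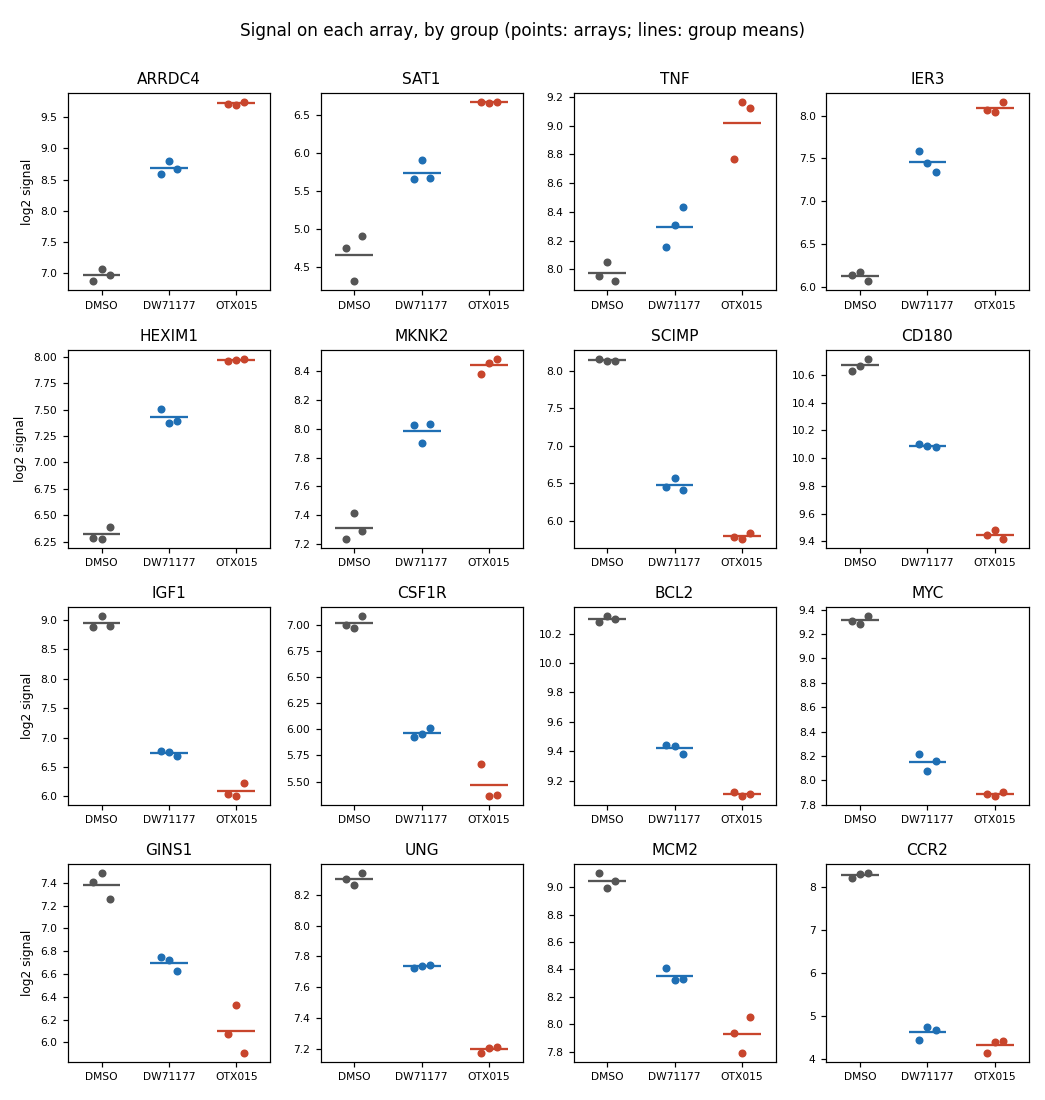
Log2 signal on each array for 16 genes in DMSO, DW71177 and OTX015 (points are arrays, lines are the means of 3 arrays; each panel has its own vertical scale). In the first 6 panels DW71177 lies between DMSO and a higher OTX015, and in the others between DMSO and a lower OTX015; CCR2, the last panel, was not called between the compounds.

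Some inflammatory and immediate early genes were lower with DW71177. Of 19 measured NF-kB and inflammatory genes, 4 were called lower (TNF, CCL3, ICAM1 and IER3), against 0.182% of all genes, and none higher in the reported fit. The list median was -0.06 against 0.01 for all genes, and 8 of the 19 lay above 0, up to 0.42. An intensity trend called 5 of the 19 lower and 1 higher, against 70 and 425 of 14812 genes in that setting. Leaving out genes of mean signal under 5 called 4 of 11 lower and 1 higher, against 83 and 510 of 6736. Leave-one-out fits called 1 or 2 of the 19 lower. IER3, a stress-induced regulator of survival, read 7.59, 7.45 and 7.34 with DW71177, 8.07, 8.05 and 8.16 with OTX015 and 6.06 to 6.17 with DMSO, and its groups did not overlap. The IER3 difference was -0.64 (interval -0.81 to -0.46, 1.55-fold, limma adjusted p = 0.0035), and it was called without each array in turn. IER3 has 11 features on the array, of which 5 dim ones gave -0.16, and the mean of all was -0.42.

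TNF, the inflammatory cytokine, read 8.16, 8.31 and 8.43 with DW71177, 8.77, 9.17 and 9.12 with OTX015 and 7.96, 8.05 and 7.92 with DMSO. Each DW71177 array was below each OTX015 array, and TNF was called against DMSO with OTX015 (1.05, limma adjusted p = 0.00014) but not with DW71177 (0.32, limma adjusted p = 0.18). The difference between the compounds was -0.72 (interval -1.05 to -0.39, limma adjusted p = 0.042). That call was lost on leaving out any of the 6 arrays other than OTX015 replicate 1, with differences from -0.85 to -0.65.

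ICAM1, an adhesion molecule, read 7.71, 7.69 and 7.74 with DW71177 and 8.13, 8.01 and 8.03 with OTX015, and was raised by both compounds from 7.06 to 7.22 with DMSO. Its difference of -0.34 (limma adjusted p = 0.027) kept its call on leaving out OTX015 replicate 2 and lost it on leaving out any of the other 5. The chemokine CCL3 was dim, with means under 5 in DW71177 and DMSO, and its difference of -0.55 (limma adjusted p = 0.025) is a lower bound at best, since no background level was given. The DMSO mean of CCL3 lay between the compounds. CXCL8, the neutrophil chemokine, was not called, at -0.19.

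Of 15 immediate early and AP-1 genes, 2 were called lower with DW71177 (FOS and KLF2), against 0.182% of all genes, none was called higher, and 13 had a difference below 0, with a median of -0.22 against 0.01 for all genes. Against DMSO, 9 of them were called higher and 1 lower with OTX015, and 3 higher and 3 lower with DW71177. Over all genes, 11.2% were called higher and 14.5% lower with OTX015, and 9.95% higher and 9.88% lower with DW71177. FOS, a subunit of AP-1, read 7.58, 7.50 and 7.24 with DW71177, 7.90, 7.98 and 8.07 with OTX015 and 6.80, 7.33 and 7.20 with DMSO, so that DW71177 overlapped DMSO and not OTX015. The FOS difference of -0.54 (limma adjusted p = 0.049) lost its call on leaving out any 1 of the 6 arrays, and the second FOS feature gave -0.07. KLF2, a zinc finger factor of quiescent leukocytes, differed by -0.29 (limma adjusted p = 0.046), at 6.65 to 6.86 with DW71177, 7.02 to 7.06 with OTX015 and 6.67 to 6.83 with DMSO; the call remained on leaving out DW71177 replicate 1 and was lost without any other. JUNB, another AP-1 subunit, was at -0.21 (interval -0.33 to -0.09, limma adjusted p = 0.09).

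MKNK2, a kinase that phosphorylates the translation factor eIF4E, read 8.03, 7.90 and 8.04 with DW71177, 8.38, 8.46 and 8.49 with OTX015 and 7.24 to 7.42 with DMSO, with no overlap between groups. Its difference was -0.46 (interval -0.59 to -0.32, limma adjusted p = 0.0073), and it held without each array in turn. ATF5, a factor of the integrated stress response, was raised from DMSO by OTX015 (0.52) and was at 0.08 with DW71177, and the difference of -0.43 (limma adjusted p = 0.014) was lost on leaving out DW71177 replicate 2. ATF5 was the sole call in the reported fit among 15 genes of amino acid and unfolded protein stress, against 1.26% of all genes.

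RSRP1, an arginine and serine rich protein, differed by -0.47 (limma adjusted p = 0.046) and NABP1, which binds single-stranded DNA, by -0.41 (limma adjusted p = 0.041). RSRP1 kept its call on leaving out OTX015 replicate 2 alone, and NABP1 kept it in no leave-one-out fit. Besides CCL3, the genes of low signal called lower were GPR84, a receptor for medium-chain fatty acids, at -0.68, MYO10, an unconventional myosin, at -0.39, the microRNA gene MIR4633 at -0.44 and MXRA5, a matrix protein named here after its values were seen, at -0.36. Each had a lower group mean under 5, and GPR84, MYO10 and MIR4633 were each called in 1 of 6 leave-one-out fits, the one without OTX015 replicate 2. NCF1B and NCF1C, near-identical copies of the NADPH oxidase gene NCF1, were called lower at -0.41 and -0.34, and their features may not tell the copies apart; they are named here after their values were seen.

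DNA replication held the most calls of the 31 gene lists, and each was higher with DW71177. Both compounds lowered them, and OTX015 lowered them farther: of 19 measured, limma called 18 lower than DMSO with OTX015 (median -0.83) and 17 with DW71177 (median -0.56). Over all genes, 14.5% were called lower than DMSO with OTX015 and 9.88% with DW71177. Between the compounds 9 of 19 were called higher with DW71177 and none lower, against 1.07% of all genes called higher, and 18 of 19 lay above 0, with a median of 0.28. The 9 were MCM2, MCM3, MCM5 and MCM6 of the replicative helicase, CDC6 and CDT1 that load it, GINS1 and GINS2 that activate it, and TYMS, the thymidylate synthase. Leave-one-out fits called 6 to 8 of the list, and the fits of 6 and 9 arrays called none of them. An intensity trend called 16 higher, against 425 of 14812 genes in that setting. Leaving out genes of mean signal under 5 gave 17, against 510 of 6736. All 19, like the measured mitotic genes and cyclins, CDKs and inhibitors, had both compounds' means at 5 or above. Of 14812 genes, 6736 had a mean signal of at least 5. Of the 159 higher calls, 18 had a lower group mean under 5. The 1.07% is thus a low reference for these lists, and the median of the 6736 genes was 0.04.

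GINS1 read 6.75, 6.72 and 6.63 with DW71177, 6.07, 6.33 and 5.91 with OTX015 and 7.41, 7.49 and 7.26 with DMSO. Its groups were apart, although the OTX015 arrays spread over more than the DW71177 arrays did. The difference was 0.60 (interval 0.40 to 0.80, 1.51-fold, limma adjusted p = 0.0089).

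MCM2 read 8.41, 8.32 and 8.33 with DW71177, 7.94, 7.79 and 8.05 with OTX015 and a mean of 9.05 with DMSO, again with no overlap, and differed by 0.43 (limma adjusted p = 0.008). MCM5 differed by 0.36 (limma adjusted p = 0.0076), MCM6 by 0.32 (limma adjusted p = 0.008) and TYMS by 0.35 (limma adjusted p = 0.008). RRM2, a subunit of ribonucleotide reductase, was the one member below 0, at -0.04. MCM2, CDC6 and GINS2 fall outside the rule for named genes and were chosen for their promoters after their values were seen.

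Promoters of the called genes are shown because the replication genes that moved together share a short sequence near their starts. The 8-base E2F motif was searched as TTTCCCGC, TTTGGCGC, TTTGCCGC or TTTCGCGC on both strands, in windows from 250 bases before to 50 after each RefSeq start on GRCh38.p14, after the values were known. Matches to these words can overlap each other. E2F factors are known regulators of replication genes at the start of S phase. In each sequence the capitals mark the motif as it reads on the gene's strand, and the window is given 5′ to 3′ along the gene.

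GINS1, chr20:25407423-25407722, plus strand: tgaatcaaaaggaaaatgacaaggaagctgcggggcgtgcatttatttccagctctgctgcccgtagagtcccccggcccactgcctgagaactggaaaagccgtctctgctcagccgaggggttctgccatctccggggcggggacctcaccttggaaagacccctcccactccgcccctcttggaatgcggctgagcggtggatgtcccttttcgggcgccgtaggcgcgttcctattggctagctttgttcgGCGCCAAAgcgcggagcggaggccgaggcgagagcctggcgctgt
GINS2, chr16:85688905-85689204, minus strand: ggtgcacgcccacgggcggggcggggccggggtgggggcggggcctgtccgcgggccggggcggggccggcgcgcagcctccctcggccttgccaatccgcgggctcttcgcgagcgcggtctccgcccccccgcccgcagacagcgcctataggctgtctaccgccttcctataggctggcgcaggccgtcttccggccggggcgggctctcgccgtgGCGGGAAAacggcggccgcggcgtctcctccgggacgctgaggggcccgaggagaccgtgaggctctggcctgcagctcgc
MCM2, chr3:127598161-127598460, plus strand: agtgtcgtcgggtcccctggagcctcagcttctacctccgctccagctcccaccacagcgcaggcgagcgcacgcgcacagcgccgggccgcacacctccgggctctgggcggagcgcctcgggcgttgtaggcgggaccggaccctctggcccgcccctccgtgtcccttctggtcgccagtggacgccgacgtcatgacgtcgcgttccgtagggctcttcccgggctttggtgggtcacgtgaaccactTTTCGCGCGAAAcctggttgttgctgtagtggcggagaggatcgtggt
CDC6, chr17:40287629-40287928, plus strand: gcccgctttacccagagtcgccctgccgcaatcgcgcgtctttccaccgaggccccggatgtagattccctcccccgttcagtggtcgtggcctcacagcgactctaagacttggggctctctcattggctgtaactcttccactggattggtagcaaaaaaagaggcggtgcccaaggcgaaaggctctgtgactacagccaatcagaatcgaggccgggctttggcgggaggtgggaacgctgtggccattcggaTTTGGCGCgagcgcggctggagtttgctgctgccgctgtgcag

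The first base of the motif lay at +6 from the start in GINS1, at -31 in GINS2 and at +8 in CDC6, and MCM2 held a pair of overlapping matches at +3 and +7. Of the 9 replication genes called higher, 8 had a promoter in the table, and all 8 held the motif. The replication genes that were not called were not searched for a count, so this share does not tie the motif to the difference. Among the 137 genes called higher with a promoter, 27 (19.7%) held it, against 408 of 5409 (7.54%) genes of mean signal at least 5, 578 of 10736 (5.38%) genes tested and 3.99% of all genes with a promoter in the table. With the lists of DNA replication, mitosis and cyclins, CDKs and inhibitors left out, 18 of 124 (14.5%) held it. These 18 still included UNG, EXO1, TOPBP1 and CLSPN, genes of DNA repair and the replication checkpoint. The 14.5% is thus not a share of genes outside the cell cycle. Of 18 called lower with a promoter, 0 held it. These matches are letters in a window and were not tested as binding sites. Over all genes of mean signal at least 5, the median difference was 0.06 for the 408 with the motif and 0.04 for those without.

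For contrast, the promoter of ARRDC4 is shown, in which the capitals mark a palindromic E-box, CACGTG, the word bound by MYC with MAX and, in paired form, by glucose-responsive factors.

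ARRDC4, chr15:97960453-97960752, plus strand: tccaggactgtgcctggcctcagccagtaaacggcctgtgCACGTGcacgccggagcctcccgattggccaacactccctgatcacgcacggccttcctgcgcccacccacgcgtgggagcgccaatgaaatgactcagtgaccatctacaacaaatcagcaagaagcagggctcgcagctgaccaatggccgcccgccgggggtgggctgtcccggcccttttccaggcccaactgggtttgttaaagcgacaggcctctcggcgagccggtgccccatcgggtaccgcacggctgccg

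The E-box lay at -210 from the start. It was found in 24 of 137 promoters of genes called higher (17.5%), in 2 of 18 called lower (11.1%) and in 724 of 5409 (13.4%) genes of mean signal at least 5. The capitals in the other promoters leave E-boxes unmarked. A longer paired form, the carbohydrate response element, was found in none of the promoters of called genes and in 12 of 10736 tested.

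Other genes of the cell cycle were also called higher with DW71177. Of 18 measured cyclins, CDKs and inhibitors, 5 were called higher (CCNE1, CCNE2, CDK4, E2F8 and RBL1), against 1.07% of all genes, and none lower. Of the 18, 15 lay above 0, with a median of 0.18, and leave-one-out fits called 2 to 5 of the list. An intensity trend called 7 higher, against 425 of 14812 genes in that setting. Leaving out genes of mean signal under 5 gave 8, against 510 of 6736. CDK4, the kinase of the G1 phase, read 8.35, 8.42 and 8.32 with DW71177, 8.03, 7.94 and 7.99 with OTX015 and 8.90 to 8.98 with DMSO, with no overlap. Its difference was 0.38 (interval 0.26 to 0.50, limma adjusted p = 0.008). CCNE1, which encodes cyclin E1, differed by 0.44 (limma adjusted p = 0.018), a call lost without DW71177 replicate 2 or OTX015 replicate 1. E2F8, a repressor of the E2F family, differed by 0.34 (limma adjusted p = 0.014). CCNE2, named after its values were seen, was higher with DW71177 than with OTX015 (0.32) and lay close to DMSO with DW71177, at 0.08.

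Each of the 24 measured mitotic genes had a difference above 0, with a median of 0.18, but 2 were called, MAD2L1 and KIF2C, against 1.07% of all genes called higher. An intensity trend called 10 of the 24 higher, against 425 of 14812 genes in that setting. Leaving out genes of mean signal under 5 also gave 10, against 510 of 6736. MAD2L1, of the spindle checkpoint, read 6.94, 7.20 and 7.16 with DW71177, 6.66, 6.66 and 6.62 with OTX015 and 7.52 to 7.65 with DMSO, and its groups were apart. Its difference of 0.45 (limma adjusted p = 0.014) was lost without DW71177 replicate 2 or replicate 3. KIF2C, a kinesin, differed by 0.23 (limma adjusted p = 0.046) and lost its call without any 1 of the 6 arrays.

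UNG, a uracil DNA glycosylase that repairs DNA, gave one of the tightest differences. It read 7.73, 7.74 and 7.74 with DW71177, 7.17, 7.21 and 7.21 with OTX015 and 8.27 to 8.34 with DMSO. DW71177 lay about midway between the others with no overlap. The difference was 0.54 (interval 0.43 to 0.65, limma adjusted p = 0.0003), and it was called in 17 of 18 alternative settings.

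Ribosome assembly was lowered by both compounds with no call between them in the reported fit. Of 21 measured ribosome biogenesis genes, 21 were called lower than DMSO with OTX015 and 20 with DW71177, against 14.5% and 9.88% of all genes. Between the compounds 0 were called by limma, with 20 of 21 above 0 and a median of 0.16. An unadjusted p under 0.05 was found for 12 of the 21, against 2032 of 14812 genes. An intensity trend called 5 of the 21 higher, against 425 of 14812 genes in that setting. Leaving out genes of mean signal under 5 also gave 5, against 510 of 6736. In the reported fit WDR43, a nucleolar protein, came nearest to a call at 0.35 (interval 0.17 to 0.53, limma adjusted p = 0.06). The 42 cytosolic ribosomal proteins had a median of 0.03 and 0 calls by limma, with 2 at an unadjusted p under 0.05.

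**Figure D4:**
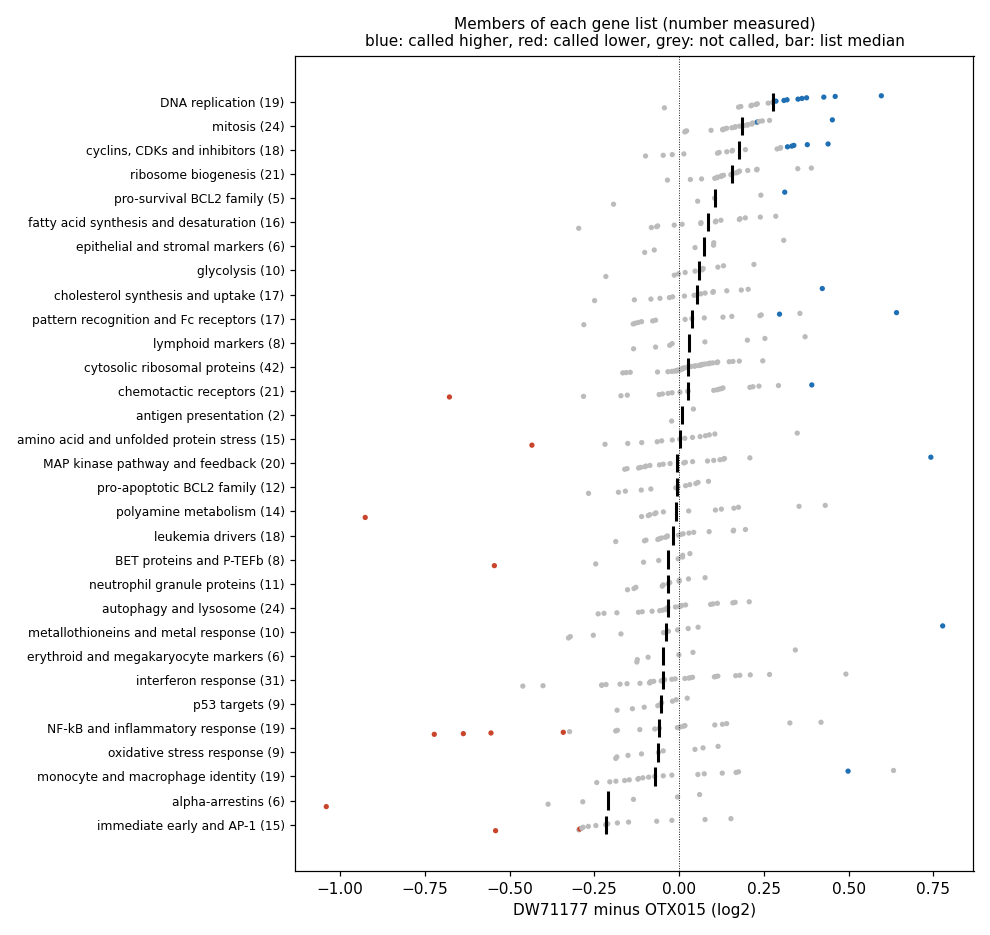
Difference between the compounds (DW71177 minus OTX015, log2) for each measured member of 31 gene lists, with the number measured in parentheses and the list median as a bar. DNA replication (median 0.28) holds 9 blue points, genes called higher with DW71177, and NF-kB and immediate early genes hold 4 and 2 red points, genes called lower.

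The 3 largest called differences above 0 at a lower group mean of at least 5 were in SCIMP, IGF1 and CD180. SCIMP, a transmembrane adaptor of antigen-presenting cells, read 6.44, 6.57 and 6.41 with DW71177, 5.78, 5.76 and 5.84 with OTX015 and 8.13 to 8.16 with DMSO. The groups were apart, and both compounds lowered SCIMP strongly. The difference was 0.68 (interval 0.56 to 0.80, 1.60-fold, limma adjusted p = 6.1e-05).

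CD180, a Toll-like receptor homologue that acts with LY86, read 10.10, 10.09 and 10.08 with DW71177, 9.44, 9.48 and 9.42 with OTX015 and 10.63 to 10.71 with DMSO. The groups were apart, and the arrays within each were close together. The difference was 0.64 (interval 0.53 to 0.75, 1.56-fold, limma adjusted p = 6.1e-05). LY86 itself, the partner of CD180, was called at 0.30 (limma adjusted p = 0.031), a call lost without any 1 of the 6 arrays. These 2 were the calls of the reported fit among 17 measured pattern recognition and Fc receptors, against 1.26% of all genes.

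IGF1, the insulin-like growth factor, fell by 2.86 with OTX015 and by 2.21 with DW71177 from DMSO. It read 6.77, 6.75 and 6.69 with DW71177 and 6.04, 6.01 and 6.22 with OTX015, against 8.88 to 9.07 with DMSO, with no overlap. The difference was 0.64 (interval 0.48 to 0.81, limma adjusted p = 0.003).

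CSF1R, the receptor for macrophage colony-stimulating factor, read 5.92, 5.96 and 6.02 with DW71177, 5.66, 5.36 and 5.37 with OTX015 and 6.97 to 7.09 with DMSO. Its difference was 0.50 (interval 0.34 to 0.66, limma adjusted p = 0.008). CSF1R was the sole call among 19 measured genes of monocyte and macrophage identity in the reported fit. Over all genes 1.26% were called, and the median of the 19 was -0.07. An intensity trend called 4 of the 19 higher, against 425 of 14812 genes in that setting. Leaving out genes of mean signal under 5 called 3 of 11 higher, against 510 of 6736. CCR1, a chemokine receptor, differed by 0.39 (limma adjusted p = 0.008), with 6.49, 6.46 and 6.55 for DW71177 and 6.07, 6.07 and 6.19 for OTX015. Of 21 chemotactic receptors, 1 was called higher (CCR1) and 1 lower (GPR84), against 1.07% and 0.182% of all genes.

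Some genes that moved far from DMSO with both compounds showed no called difference. CCR2, the receptor for CCL2, fell by 3.65 with DW71177 and by 3.94 with OTX015, and the difference of 0.29 (interval 0.08 to 0.50) had a limma adjusted p of 0.18. MPEG1, a macrophage pore-forming protein, fell by 4.20 and by 4.33, a difference of 0.13 (interval -0.09 to 0.35). Both were below a mean log2 signal of 5 with each compound. CD86, a costimulatory ligand, rose by 1.13 with DW71177 and by 1.33 with OTX015, and differed by -0.20 (interval -0.37 to -0.04, limma adjusted p = 0.24).

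The labelled cell type was checked against marker lists. LYZ, TYROBP, SPI1 and CD68 of the monocytic list and PRTN3 and AZU1 of the neutrophil granule list were at mean log2 signals above 7 in all 3 groups. The other 9 of 11 measured granule proteins were dim, with a lower group mean under 5, among them CAMP at 4.34 and LCN2 at 4.41 with DW71177. Of the 19 measured genes of the monocytic list, 9 had a lower group mean of at least 5 and the rest were dim. CD14 and S100A8, which define mature monocytes, were under 4. Of 8 lymphoid, 6 erythroid and megakaryocyte and 6 epithelial and stromal markers, 0 were called between the compounds by limma. An unadjusted p under 0.05 was found for 2, both lymphoid, against 2032 of 14812 genes. The mean level over the lymphoid list was 4.66 to 4.82 on the DW71177 arrays and 4.61 to 4.73 on the OTX015 arrays. Over the erythroid and megakaryocyte list it was 4.57 to 4.69 and 4.59 to 4.64, and over the epithelial and stromal list 4.19 to 4.25 and 4.06 to 4.23. NKG7, of cytotoxic lymphocytes, and KRT18, a keratin, were the brightest of these markers, at means of 6.63 and 7.70 with DW71177 and 6.26 and 7.80 with OTX015. Other defining markers, PAX5, CD2, GATA1 and EPCAM stayed between 2.64 and 5.10 in the group means.

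Of the genes usually read in BET-inhibited leukemia, BCL2 and MYC were called and lay closer between the compounds. BCL2, which blocks apoptosis, read 9.44, 9.44 and 9.38 with DW71177, 9.12, 9.10 and 9.10 with OTX015 and 10.28 to 10.32 with DMSO, with no overlap. Its difference was 0.31 (interval 0.21 to 0.41, 1.24-fold, limma adjusted p = 0.008), and it was called without each array in turn.

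MYC, the growth-promoting factor, read 8.22, 8.08 and 8.16 with DW71177, 7.89, 7.87 and 7.91 with OTX015 and 9.29 to 9.35 with DMSO. The groups did not overlap, and the difference was 0.26 (interval 0.14 to 0.38, 1.20-fold, limma adjusted p = 0.037). The MYC call remained on leaving out DW71177 replicate 2 and was lost on leaving out any of the other 5 arrays, with differences from 0.23 to 0.30.

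Among the leukemia drivers 0 of 18 were called by limma in the reported fit, with a median of -0.02. An unadjusted p under 0.05 was found for 1 of the 18, against 2032 of 14812 genes. CDK6 differed by 0.20 (interval 0.06 to 0.33, adjusted p = 0.16), MEIS1, a homeobox factor, by -0.10 (interval -0.28 to 0.08), MYB by 0.01 (interval -0.13 to 0.15), FLT3 by -0.06 (interval -0.18 to 0.07) and the receptor KIT by 0.16 (interval -0.10 to 0.42). For CDK6, MEIS1, MYB and FLT3 the intervals leave room for differences of at most 1.26-fold; KIT was of low signal, so its interval sets no such limit. MCL1, a relative of BCL2, was at -0.19 (interval -0.35 to -0.04, adjusted p = 0.24) and BCL2L11, a pro-apoptotic relative, at -0.16 (interval -0.35 to 0.03, adjusted p = 0.47).

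The lists of cholesterol and fatty acid synthesis held 1 call in the reported fit. TMEM97, a sterol-responsive membrane protein, read 7.18, 7.15 and 7.10 with DW71177, 6.78, 6.56 and 6.82 with OTX015 and 8.19 to 8.27 with DMSO, and differed by 0.42 (limma adjusted p = 0.012). It was the sole call among 17 genes of cholesterol synthesis and uptake, against 1.26% of all genes, and the list median was 0.05. Of 16 genes of fatty acid synthesis limma called 0, with 5 at an unadjusted p under 0.05, against 2032 of 14812 genes. FASN, the fatty acid synthase, stood at 0.24 (interval 0.11 to 0.36, limma adjusted p = 0.064). Among the 10 metallothionein and metal response genes, MT1M, which binds zinc and copper, was called at 0.78 at low signal, and MT1X was at -0.25 (interval -0.39 to -0.12, adjusted p = 0.065).

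Further genes of the largest differences were UBXN8, a protein of the endoplasmic reticulum, at 0.63, MRPL24, of the mitochondrial ribosome, at 0.56, NIF3L1 at 0.50 and the long noncoding RNA LINC00996 at 0.54. LINC00996 fell by 1.92 with OTX015 and by 1.38 with DW71177. NIF3L1 lost its call without DW71177 replicate 2, LINC00996 without DW71177 replicate 2 or 3 or OTX015 replicate 2, and MRPL24 without any 1 array. UBXN8 kept its call without DW71177 replicate 1 or OTX015 replicate 2 and lost it without any of the other 4. LSP1P4, a transcribed pseudogene, was at 0.52, and its feature may also read its parent gene. LINC00938, another long noncoding RNA, was lower with DW71177 at -0.38.

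The genes of low signal among the largest positive differences are less firmly measured. Beside MT1M these were KRTAP21-1 (0.75), MAP2K6, a kinase of the p38 pathway (0.74), and AMER1, a regulator of WNT signalling (0.65), and each, MT1M included, was called in 1 of 6 leave-one-out fits. These were the fits without OTX015 replicate 3 for MT1M, OTX015 replicate 2 for KRTAP21-1, OTX015 replicate 1 for MAP2K6 and DW71177 replicate 1 for AMER1. The second feature of KRTAP21-1 went the other way, at -0.49. In all, 23 called genes, 18 higher and 5 lower, had a lower group mean under 5, and their folds are lower bounds at best.

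Of the 470 list genes measured, 35 were called, against 1.26% of all genes, and 151 called genes were in no list. The lists not yet described held few calls or none in the reported fit. MAP2K6 was the sole call among 20 genes of the MAP kinase pathway and BCL2 among 5 pro-survival relatives, against 1.26% of all genes. By limma, 0 were called among 31 interferon response genes, 24 of autophagy and the lysosome, 12 pro-apoptotic BCL2 relatives, 11 neutrophil granule proteins, 10 of glycolysis, 9 p53 targets, 9 of the oxidative stress response and 2 of antigen presentation. Their medians ran from -0.06 to 0.06. With 1.26% of all genes called, 0 calls in lists of this length say little about them. At an unadjusted p under 0.05 there were 7 interferon genes, 5 of autophagy and the lysosome, 2 of glycolysis, 2 of oxidative stress, 1 pro-apoptotic gene, 1 granule protein, 0 p53 targets and 0 of antigen presentation. Over all genes, 2032 of 14812 had an unadjusted p under 0.05.

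In 3 of the 186 called genes the DW71177 mean lay farther from DMSO than that of OTX015. QPRT, an enzyme of NAD synthesis, read 6.05, 6.28 and 6.38 with DW71177, 5.77, 5.84 and 5.81 with OTX015 and 5.52 to 5.62 with DMSO. It was called against DMSO with DW71177 (0.65) and not with OTX015 (0.23, limma adjusted p = 0.052), and the difference between the compounds was 0.43 (interval 0.25 to 0.60, limma adjusted p = 0.023). AMZ2, a metalloprotease, differed by 0.33 (limma adjusted p = 0.045) and RASGRP4, an activator of Ras in myeloid cells, by 0.24 (limma adjusted p = 0.048). Leave-one-out fits called QPRT without DW71177 replicate 1 and without OTX015 replicate 2, AMZ2 without DW71177 replicate 3 and without OTX015 replicate 3, and RASGRP4 in no case.

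In 31 genes the DMSO mean lay between the compounds, 27 of them higher and 4 lower with DW71177. OTX015 alone was called against DMSO in 16 of these, DW71177 alone in 6 and neither in 9. NTAN1, an amidase of the N-degron pathway, read 6.67, 6.58 and 6.52 with DW71177, 6.04, 6.17 and 6.07 with OTX015 and 6.47 to 6.55 with DMSO. DW71177 overlapped DMSO, and OTX015 was apart from both. Its difference was 0.50 (interval 0.34 to 0.66, limma adjusted p = 0.008), held without each array in turn. CCHCR1, a centriolar protein, was called above DMSO with DW71177 (0.38) and was at -0.23 with OTX015, and its difference of 0.61 (limma adjusted p = 0.023) was kept without DW71177 replicate 3 or OTX015 replicate 1 and lost without any of the other 4.

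**Figure D5:**
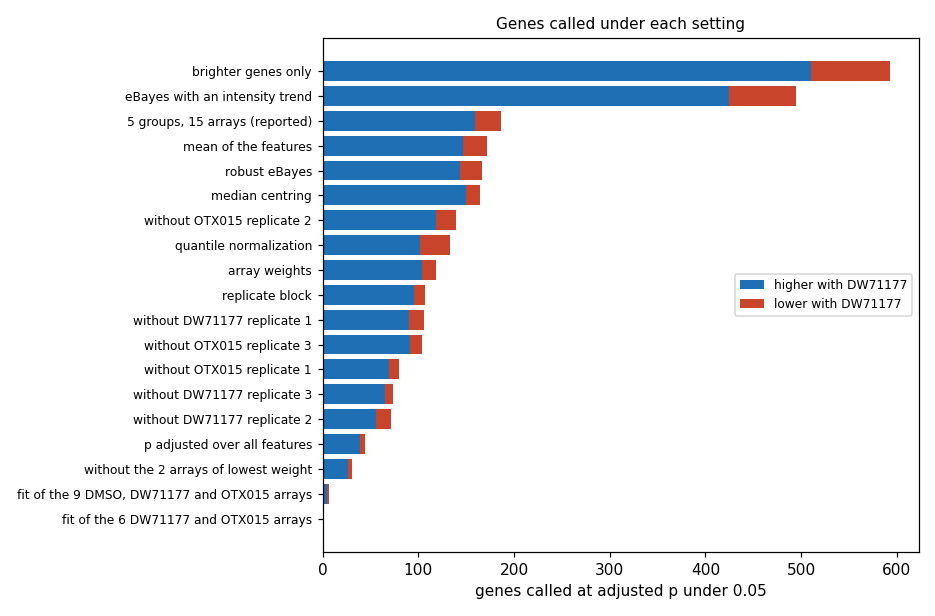
Number of genes called between the compounds (adjusted p under 0.05) in the reported fit of 15 arrays and in each alternative, split into higher (blue) and lower (red) with DW71177. The count runs from 1 in the fit of 6 arrays to 593 when genes of mean signal under 5 are left out, and higher calls exceed lower ones in each setting but the fit of 6 arrays.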

How the data were processed

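Gene expression was measured in MV4-11 cells on 15 arrays, 3 in each of 5 groups, taken from the sample titles. The authors deposited log2 signals for 44629 features; the scale was inferred from the values, and the sources used here give no background correction, normalization method or genome build. Near-equal array medians (3.72 to 3.79) and replicate correlations of 0.992 to 0.995 show signals already brought to 1 scale, so a change shared by all genes cannot be seen. Arrays give no counting depth, and their number limits the precision.

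The platform annotation named 15835 features, 0 of them with several genes, and 28794 had no name. The feature of highest mean represented each of 14812 genes, 651 of which had several features. limma 3.58.1 (lmFit and eBayes, R 4.3.3) fitted 1 mean per group over all 15 arrays with 10 residual degrees of freedom. Tests were two-sided, adjusted by Benjamini-Hochberg over all genes, and called at 0.05. The procedure was tested on simulated data. No level filter was applied, and group means under 5 were called low signal. Figures were drawn with matplotlib 3.10.9.

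The genes described, the 31 lists and the comparison itself were chosen with earlier results of these data known. Named genes were the 10 largest called differences of each sign at a lower group mean of at least 5, the 4 largest below it, 20 fixed genes (19 measured), up to 3 members of each list by smallest p, up to 6 per order in which OTX015 was not farthest from DMSO, and up to 3 called noncoding genes of a kind. Promoters came from RefSeq on GRCh38.p14. Alternatives covered the arrays fitted, array weights, the eBayes prior, scaling, choice of feature, a filter on low signal, the family of p-values, a replicate block and leaving out each array. Some genes are not reported here.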

Additional observations from a re-analysis of the deposited data

How the results depend on the processing

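Counts are total, higher and lower with DW71177, against 186, 159 and 27. Array weights gave 118, 104 and 14, a filter on mean signal 593, 510 and 83, an intensity trend in eBayes 495, 425 and 70, the fit of 6 arrays 1, 0 and 1, the fit of 9 arrays 7, 4 and 3, and p adjusted over all features 44, 39 and 5. Quantile normalization gave 133, 102 and 31 and median centring 164, 150 and 14. Leaving out 1 of the 6 arrays gave 71 to 139 in all, 56 to 118 higher and 9 to 21 lower, and leaving out a DMSO array 124 to 132. Leaving out the 2 arrays of lowest weight, chosen after seeing the data, gave 31, 26 and 5. With the replicate number as a block 107, 95 and 12 genes were called; the numbers give no sign of pairing, since same-numbered arrays had deviations correlated at 0.098, -0.077 and -0.087. The filter tests fewer genes and the smaller fits use fewer arrays; the cause of the other shifts was not tested. Using the mean of the features (172) or robust eBayes (167) moved the total by less than 1.5 times. Of 51 named called genes, 50 lost the call in the fit of 6 arrays, 44 in that of 9 and 30 with p adjusted over all features. Without the 2 arrays of lowest weight 38 lost it. Under these alternatives 0 of the 51 reversed. Fits of fewer arrays could not reverse them, since the arrays of the compounds lay wholly apart in each called gene. OTX015 lay farthest from DMSO in 81.2% to 84.1% of called genes under the 5 alternatives in which this was recomputed. With 3 arrays a group, and no background level given, differences of dim genes are the least certain.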

Other observations

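Genes of DNA repair and the replication checkpoint, a list chosen after the values were seen, were in part called the same way as the replication genes. Of 24 measured, 8 were called higher with DW71177 by limma (BARD1, BRIP1, MRE11, EXO1, DNA2, UNG, TOPBP1 and CLSPN), against 1.07% of all genes, and none lower. Of the 24, 22 had a difference above 0, and the median was 0.26. OTX015 lowered 19 of them from DMSO and DW71177 lowered 14, against 14.5% and 9.88% of all genes called lower. EXO1, an exonuclease, read 6.87, 6.86 and 6.91 with DW71177, 6.39, 6.50 and 6.59 with OTX015 and 7.46 to 7.55 with DMSO, with no overlap, and differed by 0.39 (limma adjusted p = 0.013). BRIP1, a helicase that works with BRCA1, differed by 0.37 (limma adjusted p = 0.01). Of 73 mitochondrial ribosomal proteins, likewise chosen after the values were seen, 4 were called higher (MRPL24, MRPL27, MRPL3 and MRPL51), also against 1.07% of all genes, none lower, and 65 lay above 0, with a median of 0.13. Most members of both lists had group means of at least 5, so 1.07% is a low reference for them too.

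Genes that RVX208 moved were also read in this comparison; the RVX208 arrays share the spread of the fit, and the same DMSO arrays set the direction for both. Of 461 genes lower with RVX208 than with DMSO, 55 (11.9%) were called higher with DW71177 than with OTX015 and 0 lower, with a median of 0.15. Of 505 genes higher with RVX208, 1 was called higher and 13 (2.57%) lower, with a median of -0.04. Among 13846 genes not called with RVX208, 103 (0.744%) were called higher and 14 lower. Outside the named genes, 31 features with no gene name (0.108% of those) were called when p was adjusted over all features, 23 higher and 8 lower with DW71177, and 24 of them had a mean signal of at least 5.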
